A study of Mus musculus with 123 samples.

Results

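The injury response of whole populations of dorsal root ganglion (DRG) neurons was read from 6 pooled libraries, 3 of the side with sciatic nerve transection (SNT) and 3 of the control side, out of 123 libraries in the series. They were chosen by the side named in their column names, and the other 117 libraries hold single cells. The mice were 2 months old F1 offspring of CAST/Eij males and C57BL/6 females, and the methods give these F1 mice as female. The methods also name C57BL/6 mice of both sexes and do not say which mice went into the pools. The right sciatic nerve was cut, and 3 days later neurons were dissociated from lumbar DRGs of the injured side and from DRGs of the uncut left side at the same level, which served as control. The labels name L5, and so does a caption of the paper for the pools. The methods name L3 to L5 for the dissection and L5 for the single neurons. The 3 libraries of a side are parts of 1 pool, since each was made from a portion of the same lysate of neurons of all sizes. The series text gives 106 neurons per side while the methods give a smaller number, and the number of mice in a pool is not named. Libraries were made by Smart-seq2, which amplifies full-length cDNA and carries no molecular identifiers, and were read in 50 bp. The letter in a column name and the sample identifier written below it assign the sides in opposite ways, and the source label calls all 6 libraries intact. Side was taken from the column names, and under the identifiers every difference given here would change its sign. Single cells of the same day carry source labels of intact or injury. Mean levels over SNT-side and control-side cells were 1476 and 17.7 CPM for Atf3, 2902 and 14.3 CPM for Sprr1a, and 5097 and 30.6 CPM for Gal. The paper proposes that some SNT-side cells may have been spared by the cut. In the pools all 3 genes were higher in the columns named for SNT.

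A DRG neuron has its cell body in the ganglion and 1 axon that runs both to the skin, muscle or viscera and to the spinal cord. Cutting the peripheral branch separates the cell body from its target and sends injury signals back along the axon, and adult sensory neurons are known to answer with transcription factors of the AP-1 and ATF family, with new peptides and with the parts of a growing axon. Neurons that detect pain, itch, touch and muscle stretch differ in their receptors and ion channels, and many of these genes are known to depend on factors supplied by the target tissue.

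Control libraries held 727212, 839135 and 563462 counts and SNT-side libraries 1672826, 1148849 and 2003817, so every SNT-side library was deeper than every control library, and depth and side cannot be told apart. Of 24134 genes in the table, 13010, 13172 and 12741 were above 0 in the control libraries and 14506, 14050 and 14716 in the SNT-side libraries. At 10 CPM or more, where CPM are counts scaled to a common library total, there were 9015, 9099 and 9068 genes in the control libraries and 8910, 8792 and 8741 in the SNT-side libraries. All CPM values given for genes are scaled with TMM factors, which correct library size for composition, and they are not divided by gene length. Across genes, libraries of the same side had a Pearson correlation of log2(CPM + 1) between 0.90 and 0.95.

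The libraries carried the markers of sensory neurons. All 14 genes of the neuronal marker list were above 0, and their summed level was 13539, 15630 and 15536 CPM in the control libraries and 23480, 25632 and 26483 CPM in the SNT-side libraries. Nefl, the light neurofilament, and Tubb3 held much of this sum. By gene 2 of 14 were higher and 2 lower (28.6%), 8 had a log2 change below 0 and the median was -0.03. Prph, the filament of small neurons, lay at 873, 1066 and 1198 CPM in the control and 1206, 955 and 1169 CPM in the SNT-side libraries, and Slc17a6, the vesicular glutamate transporter of these neurons, at 455, 356 and 385 and 438, 412 and 325 CPM. For both genes the sides overlapped. Tubb3, a tubulin of neurons, and Thy1, a surface protein, rose by 1.72 and 1.25. Pou4f1 and Prdm12, transcription factors that specify sensory neurons, fell, with log2 changes of -1.09 and -1.33.

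Genes of other cells differed between the sides too. Satellite glia wrap each neuronal cell body, and 11 of 11 of their markers were measured, with a summed level of 11084, 13551 and 12911 CPM in the control libraries and 5097, 6012 and 5611 CPM in the SNT-side libraries. Every SNT-side library was below every control library. Apoe, the lipid carrier, held most of this sum, with 8611, 11200 and 10512 CPM against 3654, 4481 and 4156 CPM (log2 change -1.30 ± 0.11 SE, edgeR adjusted p = 7.9e-13), and 7 of the 11 (63.6%; 0 higher and 8 lower with library size alone) passed the test as lower, Fabp7, the potassium channel Kcnj10 and the gap junction gene Gja1 among them. Among markers of Schwann cells and myelin 5 of 12 were higher and 0 lower (41.7%; 4 higher and 1 lower with library size alone), with sums of 2040, 2076 and 2358 and 2576, 2666 and 2687 CPM. The SNT-side sums lay above the control sums, and with library size alone 4 were higher and 1 lower. Pmp22 was the most abundant and did not pass the test (-0.01). None of the glial markers was at 0 in all libraries.

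Markers of immune cells and blood had low sums. The 14 macrophage markers summed to 1.30, 6.79 and 0 CPM on the control side and 18.1, 15.7 and 24 CPM on the SNT side, every SNT-side sum was above every control sum, Cd14 was the most abundant, and Itgam, C1qc, Ptprc and Tyrobp were at 0 in all 6 libraries. Neutrophil markers, led by S100a8, summed to at most 2.77 CPM in any library, and Retnlg, Mpo, Elane and Ngp were at 0. The 9 T and B cell markers summed to 1.30, 4.53 and 3.4 CPM on the control side and 10.6, 11.1 and 10.6 CPM on the SNT side, again without overlap, mostly from Cd79a, with Cd3e, Cd3g and Cd79b at 0. The 7 erythrocyte markers summed to at most 13.3 CPM, nearly all from Hba-a1, with Hba-a2, Hbb-b2, Hbb-bs and Hbb-bt at 0, and the sides overlapped. Markers of vessel cells lay between 50.9 and 88.6 CPM with overlapping sides, although 2 of 7 tested were higher, Rgs5 and Cldn5, and 1 lower, Pdgfrb (42.9%); Rgs5, the most abundant, read 20.7, 7.92 and 16.8 CPM in the control and 73.7, 52.5 and 58.0 CPM in the SNT-side libraries (2.05). Those of fibroblasts, led by Col1a2, summed to 80.4, 55.4 and 68.9 CPM on the control side and 44.3, 45.2 and 45.3 CPM on the SNT side, below every control sum. Cd14, Csf1r, Cx3cr1 and Cd79a passed the test as higher and Col1a2 as lower, but each of these lost the call without 1 library or another, and so did Cldn5. The part of these cells in the differences below was not tested, and in a pool fewer cells of a type and less RNA per cell cannot be told apart.

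The test covered 13510 genes whose mean over the 6 libraries reached 1 CPM, and 2157 of them (16%) changed by edgeR's quasi-likelihood test, at an adjusted p below 0.05 and more than a 2-fold difference. A percentage in brackets after the counts of a list or family is its share of changed genes, to be read beside that 16%. Lists and their members were chosen with earlier results of these data known. A share above 16% therefore describes a list and does not test it. Of all genes tested, 1196 (8.85%) were higher on the SNT side and 961 (7.113%) lower. Every SNT-side library lay above every control library in 2845 of the 13510 genes and below in 2245. Sides without overlap were therefore common, and for the largest rises and falls this was a condition of the choice. With library size alone as the scaling 978 were higher and 1265 lower, or 43.6% higher beside 55.4%; under that choice the log2 changes of all genes had a median of -0.14 in place of 0.02. The p-values measure the spread between parts of 1 pool per side, which is technical, and say nothing about the spread between animals. Genes with no read on 1 side have no finite fold, so their fold is given as a lower bound against a floor of 3 counts over that side, and a side with 1 to 3 counts is given as a ratio with its counting interval. Both cover counting error only, since reads without molecular identifiers are not independent molecules. With genes at 0 set to their bound, 2 of the 28 list medians they enter changed, that of the macrophage markers from 3.98 to 1.98 and that of the annexins and S100 proteins from 0.83 to 0.75.

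Atf3, the injury-induced transcription factor, marks an axotomised neuron. It read 7.78, 20.4 and 10.1 CPM in the control libraries and 1690, 1453 and 1503 CPM in the SNT-side libraries, a log2 change of 6.86 ± 0.21 SE (edgeR adjusted p = 1.5e-26), which was 7.44 without control library 2. Every SNT-side library lay far above every control library, and a low level was read on the uncut side too.

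The 10 largest rises by fitted difference were, in order, Akap2, Nts, Slc6a4, Gal, Lipn, Chrnb4, Fam163a, Trim15, Npy and Tecta. Of these, 7 had no read in any control library, so their places, and which genes enter the 10, depend on the prior count: with a prior count of 2 Gal had the largest value among the named genes, and Nts, Sprr1a, Npy and Atf3 all stood above Akap2. Slc6a4, the serotonin transporter that takes serotonin back into a cell, had 91.1, 84.8 and 58.6 CPM in the SNT-side libraries, at least 57.2-fold higher (edgeR adjusted p = 5.6e-13). Chrnb4, a nicotinic acetylcholine receptor subunit, was at 0 in the control libraries and had 56.2, 55.3 and 45.3 CPM, at least 38.6-fold higher. Lipn, of the acid lipase family, stood at 56.8, 55.3 and 49.5 CPM against 0. The other genes at 0 on the control side were Fam163a (45.6, 24 and 29.8 CPM), Trim15, of the tripartite motif family (37.5, 38.7 and 23.4 CPM), and Tecta, an extracellular matrix protein best known from the inner ear (20.6, 33.2 and 40.5 CPM). All values of these genes were clear of 0 in each SNT-side library.

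Akap2, which anchors protein kinase A, had the largest fitted difference at the prior count used, with 0 in the control libraries and 124, 138 and 98.5 CPM in the SNT-side libraries, at least 87.7-fold higher. Palm2, which RefSeq places in 1 locus together with Akap2 and which was chosen after its values were seen, went the other way, with 85.6, 57.7 and 82.3 CPM in the control and 16.2, 25.8 and 16 CPM in the SNT-side libraries (-1.98 ± 0.28 SE, edgeR adjusted p = 6.2e-07). How reads were divided between the overlapping models was not tested, so both values are uncertain.

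The 10 largest falls by fitted difference were, in order, Mrgprd, Gm765, Lpar3, Penk, Klk8, Lpar5, Lypd1, Rem2, Nell1 and Tac1. The places of the 4 with no read on the SNT side depend on the prior count too. Mrgprd, a receptor that marks nonpeptidergic pain neurons, read 1013, 891 and 968 CPM in the control libraries and 0.624, 2.77 and 0 CPM in the SNT-side libraries (-9.91 ± 0.28 SE, edgeR adjusted p = 5.2e-27), and -9.20 without SNT-side library 3. Lpar3 and Lpar5, receptors for lysophosphatidic acid, fell with it: Lpar3 went from 257, 252 and 286 CPM to 1.25, 0 and 1.06 CPM (-8.07), and Lpar5 had 66.1, 86.0 and 65.5 CPM on the control side and 1 count on the SNT side, a ratio of 337 (95% counting interval 59.6 to 13380). Penk, the precursor of the enkephalins, had 16.9, 28.3 and 38.6 CPM in the control libraries and 0 in all SNT-side libraries, at least 41.2-fold lower. Tac1, the precursor of substance P, had 46.7, 23.8 and 42 CPM against 1 count, a ratio of 166 (95% counting interval 29 to 6649). The others were the predicted gene Gm765 (128, 173 and 178 CPM against 2 counts), Rem2, a small GTPase that dampens calcium channels (53.2, 46.4 and 62.2 CPM against 1 count), Klk8, a secreted serine protease (29.8, 21.5 and 25.2 CPM against 0), Lypd1, a membrane-anchored partner of nicotinic receptors (29.8, 12.4 and 13.4 CPM against 0), and Nell1, a secreted protein with EGF repeats (18.2, 12.4 and 10.1 CPM against 0).

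**Figure D1:**
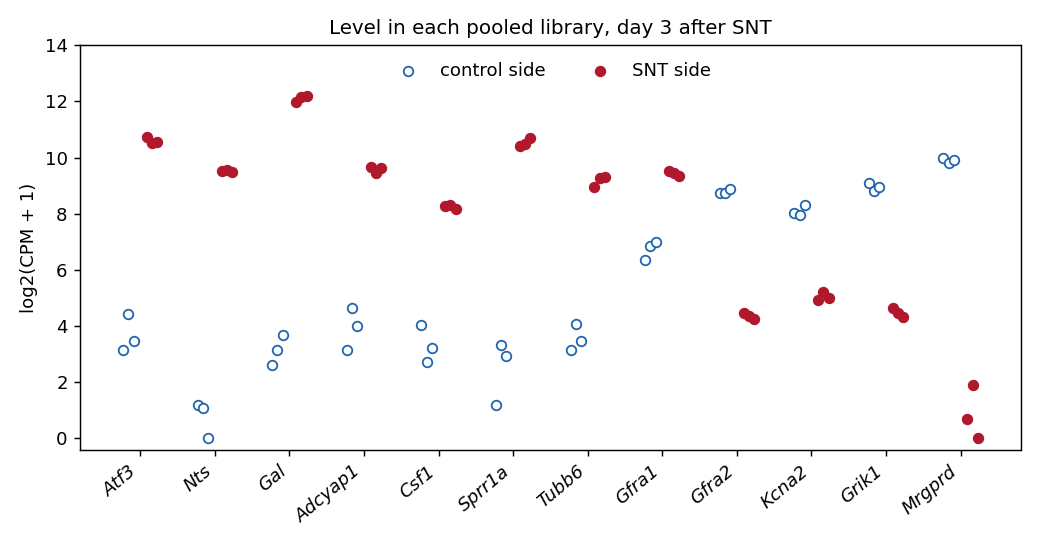
Level of 12 genes in each pooled library, as log2(CPM + 1), with control libraries as open circles and SNT-side libraries as filled circles, 3 of each. The circles of the sides do not overlap for any of the 12 genes. Over all 13510 genes tested this held for 2845 with the SNT side above and 2245 with it below. Nts, Gal and Mrgprd were picked by a rule that required it. Nts reached 734, 746 and 715 CPM on the SNT side and Mrgprd 1013, 891 and 968 CPM on the control side.

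Transcription factors were counted in 2 lists, and Runx1 stands in both. The factors that carry the injury response showed 11 of 32 genes higher and 1 lower (37.5%; 9 higher and 1 lower with library size alone), with a median log2 change of 0.68 beside 0.02 over all genes. Nfil3, a basic leucine zipper repressor, read 0, 4.53 and 0 CPM in the control and 28.1, 47.9 and 35.1 CPM in the SNT-side libraries (edgeR adjusted p = 2.4e-07). Ets2, an ETS family factor, read 2.59, 2.26 and 3.4 and 41.8, 31.3 and 30.3 CPM (3.64), and Fosl2, an AP-1 partner, 0, 4.53 and 0 and 13.7, 21.2 and 17 CPM. All control counts of Nfil3 and of Fosl2 came from control library 2, so no fold is given for them. Crem and Bach1, leucine zipper proteins that act on cAMP and oxidative stress genes, rose by 2.63 and 2.30; most control counts of Crem came from control library 1, and without that library its fold was more than 1.5 times larger. In all 5 genes every SNT-side library lay above every control library. Stat3 (0.35), Atf4 (0.36), Klf7 (0.69) and Creb1 (0.59) did not pass the test.

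Factors that hold a sensory neuron in its subtype were counted in the second list: 10 of 25 were lower and 1 higher (44%; 1 higher and 11 lower with library size alone), with a median of -1.23. Runx1, which sets the pain and itch subtypes, read 109, 97.3 and 87.3 CPM in the control and 13.1, 22.1 and 19.7 CPM in the SNT-side libraries (-2.43 ± 0.26 SE, edgeR adjusted p = 1.1e-09). Isl2, a LIM homeodomain factor, read 563, 547 and 650.1 and 221, 219 and 215 CPM (-1.42), and Ldb2, which bridges LIM domain proteins, 196, 222 and 189.8 and 34.3, 27.7 and 20.8 CPM (-2.88). Prrxl1, known for the wiring of pain neurons, Shox2, of touch neurons, and Etv5 fell, with log2 changes of -1.40, -1.23 and -1.38, whereas Isl1 (-0.43) did not pass the test. The call of Etv5 was lost after thinning to the smallest total.

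Immediate early genes follow calcium entry and electrical activity, and members went both ways. Fos read 68.7, 102 and 82.3 CPM in the control and 31.2, 35 and 32.5 CPM in the SNT-side libraries (-1.37 ± 0.24 SE, edgeR adjusted p = 2.7e-05), and Egr1, Ier2 and Egr3 were also lower, at -1.08, -1.80 and -3.02. Arc, whose product acts at synapses, and Dusp1, a phosphatase of MAP kinases, were higher: Dusp1 read 49.3, 55.4 and 37 and 146, 153 and 149 CPM (1.64). The sides did not overlap for Fos or Dusp1. In all, 2 of 12 rose and 4 fell (50%), with a median of -0.21. The calls of Arc, Egr1, Egr3 and Ier2 were each lost when at least 1 library was left out, and those of Egr1, Egr3 and Ier2 after thinning to the smallest total; Egr1 and Egr3 lost the call with the replicate block, and Egr1 with DESeq2, with limma, without a filter on low counts and with a prior count of 2.

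Secreted peptides included some of the largest changes in each direction. Of 21 peptide and granule genes tested, 8 were higher and 5 lower (61.9%; 8 higher and 7 lower with library size alone), with a median of 0.56. Nts, the precursor of neurotensin, had 2 counts in the control libraries together and 734, 746 and 715 CPM in the SNT-side libraries, a ratio of 820 (95% counting interval 227 to 6774). Gal, the precursor of galanin, read 5.19, 7.92 and 11.8 and 4048, 4579 and 4744 CPM (9.10 ± 0.19 SE, edgeR adjusted p = 1.4e-31), and Npy, that of neuropeptide Y, 0, 3.4 and 5.04 and 634, 803 and 1004 CPM (8.19, and 7.6 without control library 1). Adcyap1, the precursor of PACAP, read 7.78, 23.8 and 15.1 and 808, 707 and 801 CPM (5.59 ± 0.22 SE), and Ucn, that of urocortin, 0 and 20, 17.5 and 23.4 CPM, at least 15.6-fold higher. For each of these 5 peptides the lowest SNT-side library was far above the highest control library. Vgf, a granule protein, and Bdnf, a neurotrophin, rose by 2.19 and 1.85.

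The 5 lower genes of this list were Penk and Tac1, given above, Calcb, Nmb and Fam19a4. Calcb, the precursor of beta CGRP, read 258, 274 and 302 CPM in the control and 56.2, 59.9 and 59.6 CPM in the SNT-side libraries (-2.24 ± 0.17 SE, edgeR adjusted p = 1.3e-13). Calca, that of alpha CGRP, read 1677, 1316 and 1571 and 827, 775 and 931 CPM, and at -0.85 it did not pass the 2-fold limit although the sides were apart, while with library size alone it passed at -1.01. Nmb, the precursor of neuromedin B, and Fam19a4, a secreted protein of C low-threshold mechanoreceptors, fell, with log2 changes of -1.81 and -1.94. Chga (-0.00), Chgb (0.57) and Scg2 (0.56), proteins of the secretory granule itself, did not pass the test.

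Many cytokines and growth factors are signals that a neuron sends to the cells around it. The most abundant gene of this list was Fgf13, with 64.72% of its summed level. Of 18 tested, 8 were higher and 2 lower (55.6%), with a median of 0.90. Csf1, the growth factor of macrophages and microglia, read 15.6, 5.66 and 8.40 CPM in the control and 308, 313 and 286 CPM in the SNT-side libraries (4.93 ± 0.25 SE, edgeR adjusted p = 9.0e-19). Fgf3, a fibroblast growth factor, read 0, 1.13 and 0 and 94.3, 66.4 and 76.1 CPM, a ratio of 180 (95% counting interval 32.2 to 7145). Ccl7, a chemokine for monocytes, read 0, 1.13 and 0 and 42.5, 47.9 and 51.1 CPM, a ratio of 106 (95% counting interval 18.9 to 4225), and Ccl2, a close relative, 1.30, 1.13 and 0 and 18.7, 19.4 and 18.1 CPM, a ratio of 21 (95% counting interval 5.62 to 176). All 4 were higher in each SNT-side library than in any control library. Il34, the second ligand of the Csf1 receptor, rose by 1.78, and Ntf3 fell: it had 3.89, 13.6 and 0 CPM in the control libraries and 0 in the SNT-side libraries, at least 10.1-fold lower. Of the Ntf3 counts 12 came from control library 2 and 3 from control library 1, and without control library 2 the gene did not reach the level for a test, so the bound rests on that library. The receptor gene Csf1r itself had 0, 0 and 0 CPM in the control and 7.49, 3.69 and 3.73 CPM in the SNT-side libraries. Il34 and Csf1r each lost the call when 1 SNT-side library was left out, Csf1r also after thinning, and Ntf3 with DESeq2 and limma.

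Receptors for neurotrophins and the GDNF family tell a neuron which target it has reached. Of 10 tested, 5 were higher and 1 lower (60%), with a median of 0.96. The co-receptors of Ret parted ways. Gfra1, which binds GDNF, read 80.4, 113 and 126 CPM in the control and 729, 692 and 642 CPM in the SNT-side libraries (2.70 ± 0.16 SE), and Gfra3, which binds artemin, 19.5, 22.6 and 15.1 and 224, 193 and 202 CPM (3.4 ± 0.23 SE). Gfra2, which binds neurturin, read 421, 427 and 470.3 CPM and then 21.2, 19.4 and 18.1 CPM (-4.48 ± 0.19 SE, edgeR adjusted p = 7.6e-22). Each of the 3 was without overlap, and Ret itself (0.69) did not pass the test. Ngfr, the low-affinity neurotrophin receptor, which is also a marker of Schwann cells, rose by 1.41.

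In the pathway of interleukin 6 type cytokines, which acts through gp130 and STAT3, 5 of 28 genes were higher and 4 lower (32.1%). Il31ra, a receptor for the itch cytokine interleukin 31, read 1.30, 3.4 and 11.8 CPM in the control and 44.9, 51.6 and 29.8 CPM in the SNT-side libraries (3.04, and 4.05 without control library 3), while Osmr, with which it pairs, read 128, 114 and 138 and 59.9, 37.8 and 30.9 CPM (-1.56). Stat5a rose by 3.1, a size that rests on few control counts, 5 of them in control library 2, and the feedback inhibitors Cish and Socs3 by 1.32 and 1.16. Il6st, which encodes gp130, and Lifr did not pass the test, at -0.50 and -0.35. With library size alone 3 were higher and 4 lower, and the list median went from 0.12 to -0.04. Socs3 did not pass with DESeq2, with limma, with library size alone, after thinning or when any 1 of 4 libraries was left out.

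Markers of the neuron subtypes were counted by class, and some genes stand in more than 1 list. Of the 15 markers of nonpeptidergic pain neurons 11 were lower and 1 higher (80%; 1 higher and 12 lower with library size alone), with a median of -2.74. Markers of C low-threshold mechanoreceptors, which sense gentle touch, were lower in 7 of 8 cases (87.5%; 0 higher and 8 lower with library size alone) with a median of -2.53. Those of peptidergic pain neurons were split, with 3 higher and 6 lower of 13 (69.2%; 3 higher and 7 lower with library size alone). Those of large myelinated neurons had 4 higher and 3 lower of 15 (46.7%) and a median of 0.31, against 3 and 3 with library size alone. Rasgrp1, a Ras activator of peptidergic neurons, read 245, 206 and 195 CPM in the control and 8.12, 3.69 and 7.99 CPM in the SNT-side libraries (-4.93 ± 0.26 SE, edgeR adjusted p = 1.3e-18). Calb1, the calcium buffer calbindin, read 380.0, 302 and 388 and 14.4, 12.9 and 10.1 CPM (-4.84). Neither gene overlapped between the sides. Some markers are shared by these lists, such as Gfra2 and Th. Each side is 1 pool of picked neurons, so a different mix of subtypes and a change within neurons cannot be told apart. The same limit holds for the receptor and channel families below.

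Mas-related receptors sense itch and touch stimuli in small neurons, and 7 of 12 were lower while 1 was higher (66.7%; 1 higher and 8 lower with library size alone). Mrgprb5 read 134, 99.6 and 109 CPM in the control and 4.99, 2.77 and 1.06 CPM in the SNT-side libraries (-5.26, and -5.95 without SNT-side library 1), and Mrgpra2b, Mrgpra6 and Mrgpra9 fell, with log2 changes of -2.79, -2.75 and -2.46. Mrgprb4, which marks neurons that respond to stroking, was the exception, with 5.19, 5.66 and 1.68 CPM in the control and 145, 147 and 132 CPM in the SNT-side libraries (4.96 ± 0.33 SE, edgeR adjusted p = 1.6e-15). Several of these receptors have near-identical copies, so reads may have been divided between them. Mrgpra3, the chloroquine receptor, did not pass the test (-0.94), but it passed with library size alone (-1.10), after thinning (-1.14) and without SNT-side library 3 (-1.04).

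Potassium channels let charge out of the neuron and hold its firing in check. Of 65 genes tested whose symbols name a channel, an accessory subunit or, in 1 case, the noncoding RNA Kcnq1ot1, 19 were lower and 5 higher (36.9%), with a median of -0.79; with library size alone 22 were lower and 3 higher. Kcnq1ot1 had the highest level and did not pass the test (0.29). Kcna2, a channel of the axon near the node, read 258, 247 and 319 CPM in the control and 29.3, 36 and 30.9 CPM in the SNT-side libraries (-3.10 ± 0.19 SE, edgeR adjusted p = 2.4e-16). Kcnip2, which traffics A-type channels, read 398, 440.2 and 341 and 51.8, 41.5 and 42.6 CPM (-3.11 ± 0.17 SE). Kcns1, a silent modulatory subunit, read 37.6, 41.9 and 33.6 and 5.62, 5.53 and 3.2 CPM (-3.0). In these 3 genes the lowest control library was several times the highest SNT-side library. Kcng3 and Kcnn2 fell, with log2 changes of -2.83 and -2.54, sizes that rest on few SNT-side counts: without SNT-side library 1 Kcnn2 was at -3.14 and Kcng3 had 2 counts left, and without SNT-side library 3 Kcng3 was at -2.14. Kcnf1 had 33 counts in the control libraries and 3 in the SNT-side libraries, a ratio of 22.3 (95% counting interval 7.0 to 114). Kcnip4 read 389, 373 and 412 and 127, 112 and 119 CPM and fell by 1.70. Kcnj10 also counts among the glial markers above. Kcnq3, chosen after its values were seen, rose by 1.44, and by 2.30 without control library 1. It did not pass with DESeq2, with limma, with library size alone or when any 1 of 4 libraries was left out.

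Genes of channels that carry charge inward were counted together with those of their accessory subunits. Of 12 sodium channel genes tested 2 were higher and 3 lower (41.7%). The 2 higher, Scn2b and Scn4b, are accessory subunits, and the 3 lower, Scn10a, Scn11a and Scn1a, are channels. Over all 13 genes of the family the summed level was 3085, 3074 and 2988 CPM in the control and 2041, 2129 and 2066 CPM in the SNT-side libraries, without overlap. Scn10a and Scn11a, which carry the sodium current of pain neurons that resists tetrodotoxin, were lower: Scn10a read 1276, 1309 and 1225 CPM in the control and 316, 414 and 351 CPM in the SNT-side libraries (-1.82 ± 0.13 SE, edgeR adjusted p = 1.0e-14), Scn11a 529, 561 and 522 and 148, 136 and 153 CPM (-1.88), and Scn1a fell by 1.04 but lost the call without SNT-side library 3 and without control library 3. Scn2a1, which the symbol pattern missed and which was chosen after its values were seen, did not pass (-0.17). The accessory subunit Scn2b read 22, 7.92 and 8.40 CPM in the control and 94.3, 83.9 and 92.1 CPM in the SNT-side libraries (2.80, and 3.4 without control library 1), and Scn4b rose by 1.57. Of 16 calcium channel genes 2 were higher and 2 lower (25%). Cacna2d1, the alpha-2-delta subunit that gabapentin binds, read 211, 112 and 163 and 836, 724 and 628 CPM (2.18 ± 0.17 SE, edgeR adjusted p = 1.3e-13), and Cacnb4, a beta subunit, 276, 232 and 328 and 61.8, 63.6 and 60.7 CPM (-2.16). None of the 4 pacemaker HCN genes passed the edgeR test, and none had an unadjusted p below 0.05 or was called by DESeq2 or limma. The sides were apart for Scn10a, Scn11a, Scn2b, Cacna2d1 and Cacnb4.

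TRP channels, which sense heat, cold and irritants, had 2 higher and 5 lower of 17 (41.2%), a count that takes in the adaptor gene Trpc4ap (0.23, not past the test). Trpv1, the capsaicin receptor, read 166, 173 and 163 CPM in the control and 16.2, 17.5 and 26.1 CPM in the SNT-side libraries (-3.04 ± 0.23 SE, edgeR adjusted p = 6.1e-14), and Trpa1, the receptor of mustard oil, 197, 266 and 222 and 30.6, 47 and 29.3 CPM (-2.72). Trpc6, a cation channel of the canonical group, fell by 2.92. Among acid-sensing channels Asic1 and Asic3 rose by 2.66 and 2.76 and Asic2 fell by 1.70; the value of Asic1 was 4.09 without control library 1 and 2.06 without control library 2. Over the list of mechanosensory and acid-sensing channels 2 of 8 were higher and 2 lower (50%), and with library size alone 2 and 3. Among chloride channels and transporters 7 of 23 were higher and 3 lower (43.5%): Ano1, a calcium-activated chloride channel, read 14.3, 0 and 1.68 and 51.8, 64.5 and 46.9 CPM (3.3), and Ano3, a relative expressed in pain neurons, 467, 327 and 457 and 61.2, 60.8 and 57.5 CPM (-2.80). Without control library 2 the value of Ano1 was 2.62, and without control library 1 a single control count of Ano1 was left, so the size of its rise is uncertain. For Trpv1, Trpa1, Ano1 and Ano3 no library of 1 side reached into the range of the other.

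Receptors for transmitters at the cell surface were counted by family. Grik1, a kainate receptor subunit of small neurons, read 547, 450.4 and 496 CPM in the control and 23.7, 21.2 and 19.2 CPM in the SNT-side libraries (-4.54 ± 0.18 SE, edgeR adjusted p = 3.4e-22), and of 19 glutamate receptor genes 3 were lower and 0 higher (15.8%; 0 higher and 4 lower with library size alone). Of 9 GABA-A receptor subunits 2 were higher and 2 lower (44.4%), and with library size alone 1 and 2: Gabra5 rose by 1.69, Gabrg1 rose by 1.07 and Gabrb2 fell by 1.97. Chrna6, a nicotinic subunit, read 162, 164 and 203 and 6.24, 5.53 and 10.1 CPM (-4.51 ± 0.26 SE), opposite to Chrnb4 above, and of 17 nicotinic and serotonin receptor genes 3 were higher and 5 lower (47.1%). Htr3b and Htr4, receptors for serotonin, fell, with log2 changes of -4.08 and -2.71, and Ptger3, Ptgdr, Ptger4 and Ptger1, receptors for prostaglandins, fell too, with log2 changes of -3.22, -2.74, -1.96 and -1.71. Of 12 adrenergic, muscarinic and prostanoid receptor genes 0 were higher and 5 lower (41.7%). The sides did not overlap for Grik1 or Chrna6. Gabra5 lost the call without SNT-side library 2, and Gabrg1, close to the 2-fold limit, without SNT-side library 1, without control library 2 and with library size alone.

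Inside the cell, RGS proteins shorten the signal of G protein-coupled receptors, and 3 of 17, the binding partner Rgs7bp included, were higher and 5 lower (47.1%; 3 higher and 6 lower with library size alone). Rgs4 read 2887, 2372 and 2540 CPM in the control and 1257, 1141 and 1052 CPM in the SNT-side libraries (-1.18), Rgs10 read 233, 298 and 240.2 and 32.5, 36.9 and 38.3 CPM (-2.84 ± 0.19 SE), and Rgs3 fell by 2.19. Rgs12 had no read in the control libraries and 33.1, 11.1 and 20.8 CPM on the SNT side, at least 17.1-fold higher, and Rgs5, the vessel marker above, was higher too. None of these genes had overlapping sides.

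Genes known from growing axons were mostly higher or not called: 26 of 53 genes were higher and 2 lower (52.8%; 25 higher and 2 lower with library size alone), with a median of 0.98. Sprr1a, a small proline-rich protein of injured axons, read 1.30, 9.05 and 6.72 CPM in the control and 1365, 1439 and 1643 CPM in the SNT-side libraries (7.98 ± 0.24 SE, edgeR adjusted p = 1.1e-26), which was 8.62 without control library 2. Stmn4, a stathmin that binds tubulin, read 1.30, 5.66 and 3.4 and 117, 128 and 127 CPM (5.08, with most control counts in library 2), and Flrt3, an adhesion protein with leucine-rich repeats, 68.7, 41.9 and 67.2 and 833, 688 and 676 CPM (3.65). For these 3 genes every SNT-side value was many times every control value. Camk1, a calcium-dependent kinase, Gpr151, an orphan receptor, and Plaur, the urokinase receptor, rose by 3.3, 4.89 and 3.1. Nrn1, which promotes neurites, read 759, 588 and 551 and 98.0, 89.4 and 109 CPM (-2.67 ± 0.15 SE) and was below the control range in all 3 SNT-side libraries. Dpysl2 (-0.36), Basp1 (0.23) and Ncam1 (-0.14) did not pass the test.

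Tubulins build the microtubules of the axon, and 7 of 14 were higher with 0 lower (50%; 5 higher and 0 lower with library size alone) and a median of 0.96. Tubb6 read 7.78, 15.8 and 10.1 CPM in the control and 495, 622 and 629.9 CPM in the SNT-side libraries (5.65 ± 0.23 SE, edgeR adjusted p = 2.3e-22). Tubb3, the neuronal isotype, read 2613, 3335 and 2862 and 8865, 9360 and 10822 CPM (1.72), Tubb2a 1227, 1508 and 1362 and 3889, 4611 and 4876 CPM (1.71), and Tuba1a 5365, 6663 and 5889 and 11886, 12064 and 12730 CPM (1.03). The sides were apart for all 4, although alpha-tubulin genes are near-identical and may have exchanged reads. Of the motors that run on microtubules, 2 of 26 kinesins were higher and 0 lower (7.69%), and 1 of 21 dynein and dynactin genes was higher and 1 lower (9.52%); with library size alone 2 kinesins were higher and 1 lower, and 0 and 1 of the others. Kif5a, which carries cargo along axons, did not pass the test (-0.43). Tuba1a, close to the 2-fold limit, lost the call with library size alone, after thinning and without 1 control library.

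Guidance and adhesion genes decide where a growth cone turns and holds. Of 27 semaphorins, plexins and neuropilins 8 were higher and 3 lower (40.7%). Sema6a, a membrane-bound semaphorin, read 9.08, 29.4 and 8.40 CPM in the control and 351, 372 and 400.4 CPM in the SNT-side libraries (4.48 ± 0.25 SE, edgeR adjusted p = 7.6e-18, and 5.4 without control library 2), Plxna4, a plexin that binds it, 25.9, 23.8 and 26.9 and 293, 338 and 244 CPM (3.51), and Nrp2, a semaphorin co-receptor, 6.48, 4.53 and 8.40 and 81.2, 79.3 and 84.1 CPM (3.68). All SNT-side libraries exceeded all control libraries for each of them. Among 16 integrins 4 were higher and 2 lower (37.5%): Itga7, a laminin receptor, read 44.1, 96.2 and 53.8 and 550.0, 549 and 604 CPM (3.1 ± 0.19 SE), its partner Itgb1 rose by 1.49, and Itgb3 fell by 2.48. Of 16 ephrins and Eph receptors 1 was higher and 0 lower (6.25%), and with library size alone 1 was higher and 1 lower. Anxa1, a calcium-binding protein of the membrane, read 0, 1.13 and 0 and 49.9, 30.4 and 29.8 CPM, a ratio of 83.3 (95% counting interval 14.8 to 3310), and S100a11 6.48, 10.2 and 15.1 and 82.4, 71.0 and 103 CPM (3.05). Of 18 annexin and S100 genes 5 were higher and 0 lower (27.8%; 4 higher and 0 lower with library size alone).

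Genes that make and break down proteins were counted by group; over all genes tested 6867 of 13510 had a log2 change above 0. Of 21 cytosolic and mitochondrial tRNA synthetases 18 had a log2 change above 0 and 4 passed the test as higher (19%), with a median of 0.68; with library size alone 2 passed and the median was 0.52. Aars read 148, 152 and 123 CPM in the control and 366, 394 and 398 CPM in the SNT-side libraries (1.45 ± 0.15 SE, edgeR adjusted p = 6.7e-10), Wars 110.2, 140.3 and 175 and 316, 355 and 321 CPM (1.23). Of 84 cytosolic ribosomal protein genes 77 were above 0, yet the median was 0.28 and 2 (2.38%) passed, Rps4l and Rpl26; with library size alone 61 were above 0 and the median was 0.12. Both have near-identical copies, and Rpl26 overlapped between the sides. Mitochondrial ribosomal proteins had a median of 0.04, which was -0.12 with library size alone; none of 77 passed in edgeR, DESeq2 or limma, and 12 had an unadjusted edgeR p below 0.05. Among 54 initiation factors and genes of their kinases and binding proteins 5 were higher and 1 lower (11.1%; 4 higher and 1 lower with library size alone), and Eif4ebp1, which holds back cap-dependent translation, rose by 2.36. Proteasome subunits had 33 of 37 above 0, 3 passing as higher, 0 as lower (8.11%) and a median of 0.35, while with library size alone 0 were higher and 1 lower. Rpl26 also lost the call with DESeq2 and when any 1 of 3 libraries was left out.

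Stress pathways were counted in 3 lists. Of 45 genes of the unfolded protein and integrated stress responses 3 were higher and 3 lower (13.3% beside 16% over all genes), and with library size alone 2 and 4. Of 23 genes of DLK-JNK signalling and axon degeneration 2 were higher and 2 lower (17.4%), and with library size alone 1 and 2. Hspa5, the main chaperone of the endoplasmic reticulum, read 401, 388 and 413 CPM in the control and 428, 383 and 339 CPM in the SNT-side libraries, and the sides overlapped (-0.07). Asns, a target of ATF4, read 486, 438 and 514 and 446, 490.4 and 474 CPM (-0.03), and Ddit3, which encodes CHOP, 40.2, 56.6 and 48.7 and 41.2, 45.2 and 45.8 CPM (-0.14). Phgdh, the first enzyme of serine synthesis, fell by 1.35. Among 25 heat shock genes 2 were higher, Hspb1 and Bag3, and 0 lower (8%), and with library size alone 1 and 0, while Hspa8 (0.16) and Hsp90ab1 (0.12) did not pass the test. The axonal kinase Map3k12, known as DLK, read 49.3, 39.6 and 52.1 and 46.2, 38.7 and 58.6 CPM (0.05), and Sarm1, the executor of axon degeneration, 85.6, 109 and 108 and 268, 220.3 and 259.8 CPM (1.31 ± 0.17 SE, edgeR adjusted p = 9.0e-08). Bag3 lost the call with library size alone.

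Cell death genes went both ways. Of 28 genes of a list of the BCL2 family and the caspases, which also holds Cycs, 2 were higher and 5 lower (25%). With library size alone 2 were higher and 6 lower. Pmaip1, a BH3-only gene, read 2.59, 13.6 and 11.8 CPM in the control and 71.8, 82.0 and 63.9 CPM in the SNT-side libraries (2.94 ± 0.35 SE, edgeR adjusted p = 1.3e-08). Bcl2, which protects from death, read 44.1, 18.1 and 35.3 and 6.87, 2.77 and 1.60 CPM (-3.07 ± 0.50 SE, and -3.88 without SNT-side library 1), and Casp1 fell by 2.35. Pmaip1 and Bcl2 had no overlap between the sides. Bax (0.70) and Mcl1 (0.47) did not pass the test, but Bax passed without control library 2 (1.34). Cdkn1a and Gadd45a, targets of p53 that stop the cell cycle, read 33.7, 36.2 and 10.1 and 483, 514 and 533 CPM (4.18) and 5.19, 13.6 and 6.72 and 94.9, 88.5 and 123 CPM (3.52), yet Mdm2 (-0.04) and Ccng1 (0.32), further p53 targets, did not pass, and 4 of 18 p53 targets were higher and 1 lower (27.8%), or 4 and 2 with library size alone. The call of Casp1 was lost without control library 3, where it was at -1.58.

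Lipid synthesis and sugar breakdown were counted by pathway. Of 25 genes of cholesterol synthesis 21 had a log2 change below 0, with a median of -0.51, 4 lower by the test and 1 higher (20%; 1 higher and 6 lower with library size alone). Dhcr7, the last step of the pathway, read 150.4, 188 and 136 CPM in the control and 72.4, 85.7 and 75.6 CPM in the SNT-side libraries (-1.04 ± 0.19 SE, edgeR adjusted p = 3.6e-05), and Tm7sf2, a sterol reductase, fell by 2.19. In fatty acid synthesis 4 of 16 were lower and 0 higher (25%): Scd1, a desaturase, read 819.6, 755 and 714 and 336, 302 and 295 CPM (-1.29). These genes were lower in the libraries in which the satellite glia markers were lower, and the part of glial RNA in them was not tested. In glycolysis 3 of 22 were higher and 2 lower (22.7%), with a median of 0.50. Pkm, pyruvate kinase, read 1078, 1297 and 1287 and 2857, 3061 and 2989 CPM (1.28 ± 0.11 SE), Slc2a1, the glucose carrier GLUT1, 45.4, 60.0 and 67.2 and 169.8, 186 and 152 CPM (1.56), and Aldoc, an aldolase, 409.8, 571 and 538 and 159, 173 and 157 CPM (-1.64). In the respiratory chain 0 of 36 complex I genes were higher and 1 lower (2.78%), and none of 13 genes of complexes II and III, 11 of complex IV or 17 of ATP synthase passed in edgeR, DESeq2 or limma. At an unadjusted edgeR p below 0.05 there were 5, 3 and 6, and with library size alone edgeR called 1 ATP synthase gene lower. The call of Dhcr7, close to the 2-fold limit, was lost when either of 2 libraries was left out.

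Polyamines, small cations made from ornithine, have been tied to axon growth. Odc1, their rate-limiting enzyme, read 18.2, 20.4 and 21.8 CPM in the control and 58.7, 79.3 and 64.4 CPM in the SNT-side libraries (1.74 ± 0.28 SE, edgeR adjusted p = 7.3e-06), and Srm, spermidine synthase, 37.6, 35.1 and 48.7 and 107, 95.9 and 113 CPM (1.40). The antizyme inhibitor Azin1 rose by 1.19. All SNT-side values of Odc1 and Srm lay above the control values. Over the whole list, which also holds tetrahydrobiopterin and nitric oxide synthesis, 4 of 25 were higher and 4 lower (32%).

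The release machinery of the synapse had members that rose, fell or did not pass. Of 41 genes 3 were higher and 7 lower (24.4% beside 16% over all genes), with a median of -0.03; with library size alone 1 was higher and 7 lower. Syn1 (-0.03), Stx1a (-0.03), Vamp2 (0.18) and Snap25 (-0.45) did not pass the test. Synpr, a vesicle protein of small neurons, read 1292, 898 and 1288 CPM in the control and 179, 178 and 153 CPM in the SNT-side libraries (-2.77 ± 0.15 SE, edgeR adjusted p = 2.0e-18), and Rab27b, a GTPase of vesicle docking, 407, 223 and 407 and 19.4, 41.5 and 27.2 CPM (-3.59 ± 0.23 SE). Both were lower in every SNT-side library. The scaffolds Rims2 and Unc13c fell, with log2 changes of -1.42 and -1.33.

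**Figure D2:**
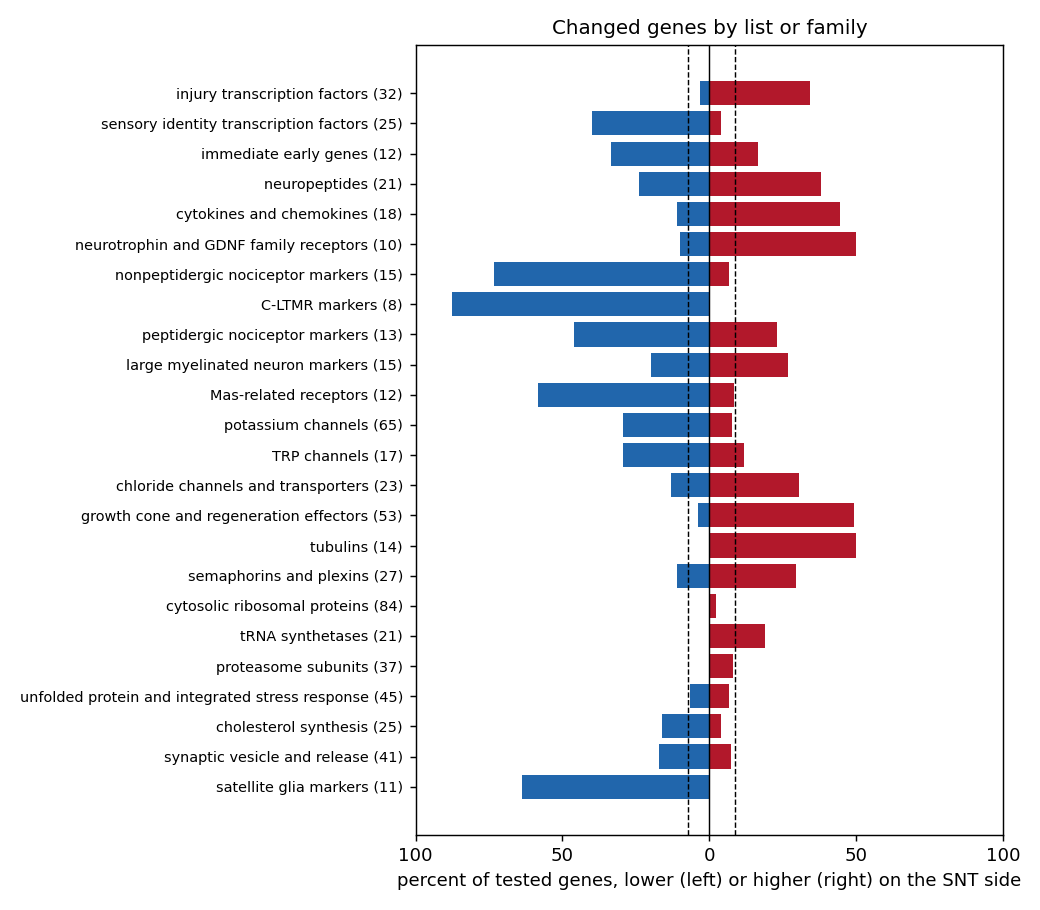
Percent of the tested genes of a list or family that were higher (right) or lower (left) on the SNT side by the edgeR test. The 24 groups drawn were picked by hand from the 39 lists and 31 families, with the number of tested genes in brackets. Several groups with no changed gene, such as the HCN channels and ATP synthase, are not drawn. Dashed lines mark the shares over all 13510 genes tested, 8.85% higher and 7.113% lower; growth cone genes stand at 26 higher of 53 and the potassium channel family at 19 lower of 65.

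Single cells of the same day were set beside the pooled differences. They are 41 SNT-side and 18 control-side cells that the authors kept, they name no animal, and each side counts as 1 sample, so no test was made. Of the 10 largest pooled rises 9 had a higher mean in the SNT-side cells and of the 10 largest falls 9 had a lower one. The genes named here were chosen with earlier results of these data known. The share with the same direction in the cells was not counted over all changed genes, so these counts have no background beside them. Over all genes named here, 69 of 86 that were higher in the pool had a higher mean in the SNT-side cells, by more than 2-fold in 55. Of 86 that were lower in the pool, 76 had a lower mean, by more than 2-fold in 52. The others went the other way in log2 ratios of mean CPM + 1: higher in the pool but not in the cells were Chrnb4 (-1.34), Scn2b (-1.28), Asic3 (-1.06), Ngfr (-0.77), Scn4b (-0.71), Bdnf (-0.67), Gabra5 (-0.63), Rgs5 (-0.55), Ccl2 (-0.54), Asic1 (-0.47), Nrp2 (-0.40), Cldn5 (-0.35), Cd79a (-0.32), Mrgprb4 (-0.30), Rpl26 (-0.23), Thy1 (-0.21) and Rps4l (-0.11), and lower in the pool but not in the cells were Shox2 (1.65), Penk (1.22), Col1a2 (0.95), Calb1 (0.91), Phgdh (0.31), Osmr (0.19), Cnr1 (0.09), Kcnj10 (0.09), Fos (0.04) and Itgb3 (0.04). Trpv1 had 73.9 CPM over SNT-side and 74.0 CPM over control-side cells. Slc6a4 had a mean of 150.4 CPM over SNT-side cells and 0.660 CPM over control-side cells (log2 ratio 6.51), and above 10 CPM it was found in 51.2% and 0% of the cells. Of those that went the other way, Chrnb4 had 23.1 against 60.0 CPM and Penk 67.5 against 28.4 CPM. Akap2, at 0 in the control pool, had 18.9 CPM over control-side cells and 109 CPM over SNT-side cells (2.46). Mrgprd had 142 against 638 CPM (-2.16). Apoe, the glial marker, had 2791 against 3012 CPM (-0.11), and Mrgprb4 84.3 against 104 CPM (-0.30).

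**Figure D3:**
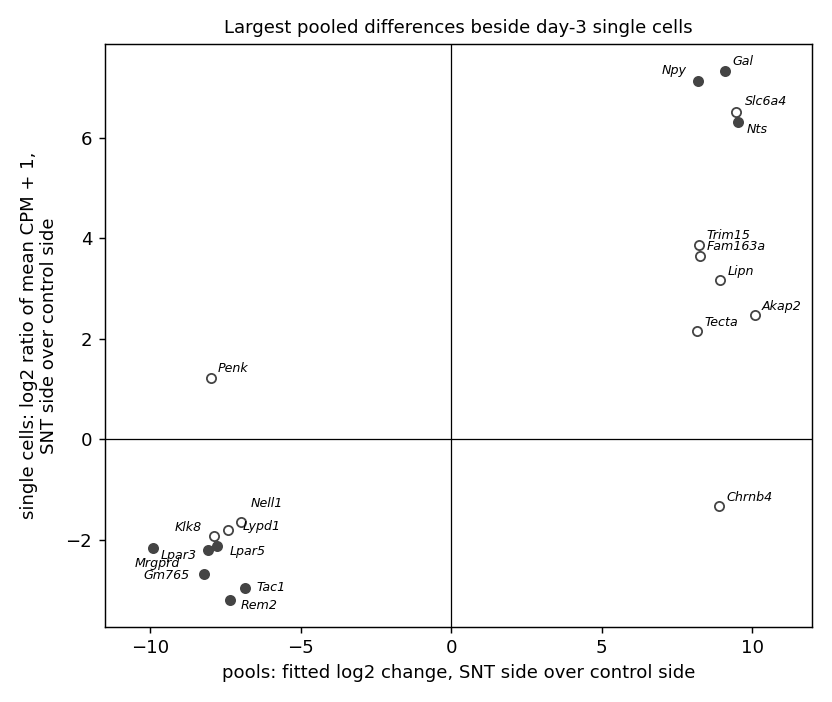
Log2 difference in the pools (horizontal axis, fitted by edgeR) against the log2 ratio of mean CPM + 1 of single cells by side (vertical axis) for the 10 largest rises and 10 largest falls in the pools; fitted values of genes at 0 on 1 side depend on the prior count and are drawn as open circles. Chrnb4 and Penk lie on opposite sides of 0 in the 2 measures.

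Promoters were searched for the letters of AP-1 and of the cAMP and ATF family because members of these factor families were among the genes that rose, and 4 windows are shown that were picked because they hold the letters. In the 250 bases before the start of each RefSeq promoter (GRCm38.p6), the AP-1 letters TGACTCA, read TGAGTCA on the other strand, were sought on both strands, and 4.46% of all 32851 promoters held them. The share was 5.78% of 1141 promoters of genes higher on the SNT side, 3.56% of 955 of genes lower and 3.00% of 10907 of tested genes not called. For TGACGTCA, the cAMP response element, the shares were 1.55% of all promoters, 2.10%, 1.57% and 2.69%. Of the 10 largest rises 9 matched a promoter, and 2, Nts and Lipn, held the AP-1 letters; 9 of the 10 largest falls matched, and none held them. The windows of Nts (chr10:102490419-102490668, minus strand), Sprr1a (chr3:92485882-92486131, minus strand) and S100a11 (chr3:93520246-93520495, plus strand) are given with the AP-1 letters in capitals, and that of Ucn (chr5:31138896-31139145, minus strand) with the cAMP response element in capitals. A match describes the letters and not a bound factor, and whether these factors act on the genes was not tested.
Nts: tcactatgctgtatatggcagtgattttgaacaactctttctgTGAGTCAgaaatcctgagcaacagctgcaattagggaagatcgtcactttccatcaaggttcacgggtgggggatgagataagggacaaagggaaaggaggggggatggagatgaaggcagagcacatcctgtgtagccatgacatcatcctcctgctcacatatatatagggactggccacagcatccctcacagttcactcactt
Sprr1a: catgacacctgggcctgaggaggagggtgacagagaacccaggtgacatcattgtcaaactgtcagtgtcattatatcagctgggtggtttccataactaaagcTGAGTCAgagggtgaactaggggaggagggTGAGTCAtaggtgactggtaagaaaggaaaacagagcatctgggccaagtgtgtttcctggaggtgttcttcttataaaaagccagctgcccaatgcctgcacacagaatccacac
S100a11: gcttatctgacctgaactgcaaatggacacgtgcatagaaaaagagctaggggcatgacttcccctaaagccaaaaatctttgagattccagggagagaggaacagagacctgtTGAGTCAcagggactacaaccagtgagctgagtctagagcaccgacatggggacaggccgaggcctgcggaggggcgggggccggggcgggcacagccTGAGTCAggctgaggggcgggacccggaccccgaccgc
Ucn: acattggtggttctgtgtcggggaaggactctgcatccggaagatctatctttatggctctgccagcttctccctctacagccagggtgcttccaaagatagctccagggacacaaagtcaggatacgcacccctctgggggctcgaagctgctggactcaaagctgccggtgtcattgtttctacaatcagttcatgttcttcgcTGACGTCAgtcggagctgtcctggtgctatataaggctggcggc
In Nts the letters start 207 bases before the gene, in Sprr1a at 146 and 116, in S100a11 at 136 and 38, and in Ucn at 44.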

How the data were processed

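The authors mapped reads to mm9 and deposited expected counts per gene; the submitters' processing notes name CASAVA 1.8.2, Bowtie2 and RSEM, the latter 2 without versions. The deposited file is named for TPM, but its columns differ in their totals and hold estimated counts. Of its 123 columns, 6 pooled ones were used for the tests and the other 117 hold single cells. Values were rounded and tested with edgeR 4.0.16 in R 4.3.3 (TMM, quasi-likelihood, prior count 0.125, Benjamini-Hochberg), with DESeq2 1.42.0 and limma 3.58.1 as alternatives; the procedure was tested on simulated data. Library totals are given with the results. Named genes were Atf3, the 10 genes with the largest positive and the 10 with the largest negative change (changed, without overlap, and reaching a mean of 10 CPM on 1 side), members of 39 lists, and from each of 31 families up to 6 changed members of largest change and 3 others of highest level. Members and lists were chosen with earlier results of these data known. Some genes that this rule names are not reported here. Families were taken by gene symbol, so a few hold genes that are not members by function (Kcnq1ot1, Trpc4ap, Rgs7bp, and kinases and binding proteins of initiation factors), and 1 missed a member (Scn2a1); this was seen after the values were, and the families were left as they were.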

Additional observations from a re-analysis of the deposited data

How the results depend on the processing

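Across 15 alternatives, 6 of which left out 1 library each, every count of changed genes was within 1.5 times of the value given. The number of changed genes was 1765 with DESeq2, 2061 with limma, 2146 with RLE size factors, 1649 at a mean of at least 10 CPM and 1804 after thinning to the smallest total, and without 1 library it lay between 1881 and 2142. Of 172 named genes that changed, 147 kept the call in each of the 15 that gave them a value and 25 lost it under at least 1; 16 of the 172 had no value at a mean of at least 10 CPM, Ntf3 had none without control library 2, and Cx3cr1 and Cldn5 had none without SNT-side library 3. No named gene that changed had its direction reversed. Both sides carry libraries numbered 1 to 3, and with the number as a replicate block 2009 genes changed, 1137 higher and 872 lower; same-numbered libraries had correlations of their deviations of 0.13, 0.01 and -0.03, so the number was not taken to pair them.

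The log2 change of named genes that did not pass the test reversed under some alternatives, and the cause was not tested. Limma gave Chga 0.0092. Without a filter on low counts it was Chga 0.0105. With the replicate block it was Chga 0.0108. After thinning to the smallest total they were Ddit3 0.0306, Scn2a1 0.0208, Stx1a 0.0322. With library size alone they were Hsp90ab1 -0.0437, Hspa8 -0.0013, Map3k12 -0.11, Prph -0.0695. Over the fits that each left out 1 library the ranges were Asns -0.0886 to 0.0264, Chga -0.0516 to 0.0762, Hspa5 -0.14 to 0.0271, Map3k12 -0.12 to 0.19, Mdm2 -0.33 to 0.29, Pmp22 -0.0755 to 0.0862, Prph -0.0346 to 0.20, Scn2a1 -0.46 to 0.36, Slc17a6 -0.11 to 0.10, Stx1a -0.13 to 0.10, Syn1 -0.0729 to 0.0184.

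Log2 changes are given for each named gene whose call was lost when 1 library was left out, all in the direction given before; that of Csf1r, Cx3cr1 or Cldn5, with no read in the control libraries, depends on the prior count. Without SNT-side library 1 they were Cd14 2.60, Col1a2 -1.10, Csf1r 5.00, Dhcr7 -0.97, Egr1 -0.99, Gabrg1 0.94, Ier2 -1.79, Kcnq3 1.44, Socs3 1.15. Without SNT-side library 2 they were Col1a2 -1.05, Cx3cr1 5.09, Gabra5 1.49, Hdac11 -0.82, Kcnq3 1.07. Without SNT-side library 3 they were Arc 1.46, Cd14 2.72, Egr1 -0.93, Egr3 -2.70, Ier2 -1.40, Il34 1.54, Oprl1 -0.90, Rpl26 1.38, Scn1a -0.99, Socs3 0.93. Without control library 1 they were Cd14 3.1, Cd79a 2.56, Cldn5 5.28, Col1a2 -0.97, Cx3cr1 5.27, Egr1 -1.10, Egr3 -2.48, Hdac11 -0.95, Rpl26 1.23, Tuba1a 0.95. Without control library 2 they were Cd14 3.03, Cldn5 5.26, Cx3cr1 5.24, Dhcr7 -0.89, Egr1 -1.04, Gabrg1 0.95, Hdac11 -0.99, Kcnq3 1.02, Socs3 0.93. Without control library 3 they were Casp1 -1.58, Cd14 2.37, Cd79a 2.71, Cldn5 5.32, Col1a2 -1.17, Cx3cr1 5.31, Egr1 -1.11, Ier2 -1.60, Kcnq3 1.26, Rpl26 1.36, Scn1a -0.87, Socs3 1.12. The genes that lost the call under the other alternatives were with DESeq2 Cd14, Cd79a, Cldn5, Col1a2, Cx3cr1, Egr1, Kcnq3, Ntf3, Rpl26 and Socs3, with the replicate block Cd14, Cldn5, Cx3cr1, Egr1 and Egr3, with library size alone Bag3, Gabrg1, Kcnq3, Socs3 and Tuba1a, with limma Cx3cr1, Egr1, Kcnq3, Ntf3 and Socs3, without a filter on low counts Egr1, with a prior count of 2 Egr1 and Hdac11, and after thinning Cd14, Cldn5, Csf1r, Egr1, Egr3, Etv5, Ier2, Socs3 and Tuba1a, and the cause was not tested. Calls were gained by Bax 1.34 without control library 2, Calca -1.01 with library size alone, Hba-a1 2.61 without control library 2, Mrgpra3 -1.10 with library size alone, Mrgpra3 -1.14 after thinning and Mrgpra3 -1.04 without SNT-side library 3.

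The fold of 31 named genes that changed moved by more than 1.5 times when 1 library was left out. The log2 changes that moved that far became Ano1 2.6, Asic1 2.1 and 4.1, Atf3 7.4, Bcl2 -3.9, Casp1 -1.6, Crem 3.4, Il31ra 4.1, Kcng3 -2.1, Kcnn2 -3.1, Kcnq3 2.3, Mrgprb5 -6.0, Mrgprd -9.2, Npy 7.6, Rpl26 1.2, Scn2b 3.4, Sema6a 5.4, Sprr1a 8.6. With 1 library left out Ano1, Anxa1, Ccl7, Cd79a, Fgf3, Fosl2, Gm765, Kcnf1, Kcng3, Lpar5, Mrgprd, Nfil3, Rem2, Rpl26, Stat5a, Stmn4 and Tac1 had at most 3 reads left on the low side, and Ntf3 has none on the SNT side, so no fold is given for these.

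List medians changed sign in 20 of 69 lists and families under at least 1 alternative, 10 of them under library size alone. The control libraries, at most 839135 counts deep, limit what can be read for genes of low level.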

Other observations

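Several gene groups outside the axon and the membrane were counted in the same way, with the share of changed genes in brackets beside 16% over all genes. The MHC class I pathway, which shows peptides to T cells, had 1 of 16 genes higher and 4 lower (31.2%; 1 higher and 5 lower with library size alone), with a median log2 change of -0.38; classical H2 genes share reads with near-identical copies and are uncertain. Of 10 genes of the opioid and cannabinoid systems 0 were higher and 3 lower (30%). Cnr1, the cannabinoid receptor of neurons, read 37.6, 43 and 52.1 CPM in the control and 18.7, 5.53 and 9.05 CPM in the SNT-side libraries (-1.93 ± 0.36 SE, edgeR adjusted p = 7.0e-05), and Oprl1, the nociceptin receptor, 42.8, 41.9 and 31.9 and 17.5, 24.9 and 4.79 CPM (-1.39). The sides did not overlap for either gene. Among P2X and P2Y receptors, which sense ATP, 1 of 11 was higher and 3 lower (36.4%). Oprl1 lost the call without 1 SNT-side library.

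Chromatin and degradation genes were counted too. Of 29 DNA methylation and histone modifier genes 2 were higher and 2 lower (13.8%). Tet3, which oxidises methylated cytosine, read 13, 14.7 and 15.1 CPM in the control and 82.4, 77.4 and 62.3 CPM in the SNT-side libraries (2.37), and Hdac11, a histone deacetylase, 57.1, 53.2 and 38.6 and 31.8, 14.8 and 24.5 CPM (-1.05). Of 28 lysosome and autophagy genes 2 were higher and 1 lower (10.7%), and with library size alone 2 were higher and 3 lower. Among intermediate filaments 3 of 13 were higher and 0 lower (23.1%; 3 and 1 with library size alone), and among itch neuron markers 2 of 7 were higher and 3 lower (71.4%; 2 higher and 4 lower with library size alone). Hdac11 lost the call when any 1 of 3 libraries was left out and with a prior count of 2.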
